A study of Drosophila melanogaster with 3 samples.

Results

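Serotonin, dopamine, octopamine and tyramine are made in the fly from tryptophan and tyrosine by a short chain of enzymes, and the transcripts of these enzymes were examined in larval hearts that lack the transcription factor Hand. The set comprised 10 genes, chosen by CG number from the 7498 genes of the value table: *Trhn* (CG9122), *Hn* (CG7399), *ple* (CG10118), *Ddc* (CG10697), *Tdc1* (CG30445), *Tdc2* (CG30446), *Tbh* (CG1543), *e* (CG3331), *t* (CG12120) and *AANAT1* (CG3318, symbol *speck* in RefSeq). *Trhn* led to the choice of this set because its ratios on these same arrays were low, so its values are given as a description. A value was present for 4 of the 10 genes, *Trhn*, *Ddc*, *e* and *AANAT1*, and only *Trhn* was measured on all 3 arrays. In these data the *Trhn* transcript was lower in hand[173] than in w[1118] hearts on each of the 3 arrays, *Ddc* was lower on its single array, and the values of *e* and *AANAT1* lay near the middle of their arrays.

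The RNA came from hearts of wandering 3rd instar larvae of 2 lines, homozygous hand[173] animals, which carry a null allele of *hand*, and w[1118] animals, used as wild type. Larvae of both lines were raised at 22 °C and relaxed for 15 seconds in a 60 °C water bath. About 100 heart tubes per genotype were combined into 1 RNA pool, amplified, and hybridized together on 3 spotted 2-colour arrays, with hand[173] RNA in Alexa Fluor 647 and w[1118] RNA in Alexa Fluor 555 on each array. The methods call the arrays technical replicates of these pools, whereas the sample titles number them with the letters bR, which no source used here explains. The methods were followed, so there is 1 sample per genotype and no p-value is given. Every SD below covers the spread between the arrays and, if the letters stand for separate preparations, would include the spread between these as well. Since no dye swap was made, a dye effect on a gene and a difference between the lines cannot be told apart, and neither can loss of Hand and any other difference in the background of the lines. The dissected material held pericardial cells and muscle besides the heart tube. The sample labels name longitudinal ventral muscles where the methods name alary muscles, and the labels' labelling protocol names fat bodies as the source of RNA where the methods name larval hearts.

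Each value is a log2 ratio of hand[173] over w[1118], so that a negative value stands for a lower transcript level in hand[173]. A ratio carries no absolute level, and whether fewer cells expressed a gene or each cell held less of its RNA cannot be told apart in pooled tissue. The arrays did not share a centre. The median log2 ratio was 0.97 over the 1372 values of array 1, 0.38 over the 2650 values of array 2 and -0.56 over the 6459 values of array 3. Values are therefore given as deposited and after the median of each array was set to 0, called centred below. Across genes, which are not independent replicates, arrays 2 and 3 correlated with a Pearson's r of 0.77 (1982 genes). Array 1 correlated less with array 3 (r = 0.14 over 937 genes) and with array 2 (r = 0.09 over 530 genes). A value on 1 array only was the common case and held for 66.4% of the genes in the table. The *hand* transcript itself (CG18144) had 1 value, a log2 ratio of -0.16 on array 3 or 0.40 after centring, and gives no check of the genotypes because neither labels nor methods describe the lesion of the allele.

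In the serotonin route, an aromatic amino acid hydroxylase first adds a hydroxyl group to tryptophan and an aromatic amino acid decarboxylase then yields the amine. *Trhn* encodes the neuronal tryptophan hydroxylase, the first and rate-limiting step, and *Hn* encodes the phenylalanine hydroxylase that also acts on tryptophan outside neurons. Dopamine is made along the same lines from tyrosine by the tyrosine hydroxylase encoded by *ple*, and the decarboxylase encoded by *Ddc* serves both routes. Tyramine and octopamine follow from tyrosine through the tyrosine decarboxylases encoded by *Tdc1* and *Tdc2* and the tyramine beta-hydroxylase encoded by *Tbh*. Ebony, the product of *e*, couples dopamine or histamine to beta-alanine, Tan, the product of *t*, splits these conjugates again, and the enzyme encoded by *AANAT1* acetylates amines. In the fly, dopamine is also a precursor for the pigmentation and hardening of the cuticle, and *Ddc*, *e* and *t* are well known for that role.

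*Trhn* showed the lowest mean log2 ratio of the 466 genes with values on all 3 arrays, both as deposited and after centring. Array 1 gave a log2 ratio of -1.11, array 2 one of -3.92 and array 3 one of -4.09. All of these values lie below 0, with array 1 far above arrays 2 and 3. They correspond to 46.3%, 6.61% and 5.87% of the wild type level, respectively. The mean was -3.04 ± 1.67 (SD, n = 3 arrays of 1 pair of RNA pools), which equals 12.2% of wild type. On centred arrays the values were -2.08, -4.30 and -3.54, with a mean of -3.30 ± 1.13 (SD, n = 3 arrays), or 10.1% of wild type.

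**Figure D1:**
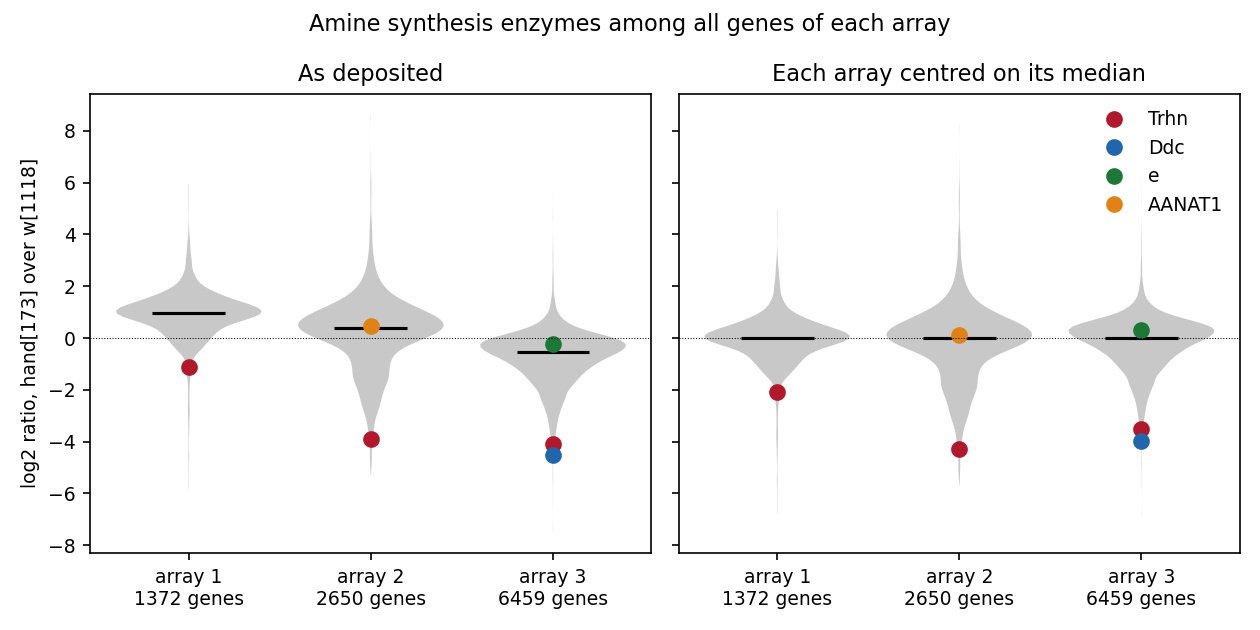
Log2 ratios of hand[173] over w[1118] hearts (vertical axis) on arrays 1, 2 and 3, as deposited (left) and centred on the median of each array (right); grey shapes show the distribution of all genes with a value, black lines their medians, and points the 4 measured enzymes, without error bars because each point is 1 value. *Trhn* lies at -1.11, -3.92 and -4.09 as deposited and *Ddc* at -4.54, in the lower tails, whereas *e* and *AANAT1* lie close to the medians.

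The place of *Trhn* within each array does not move when an array is shifted or rescaled. It held the 38th lowest of 1372 values on array 1, the 18th lowest of 2650 on array 2 and the 48th lowest of 6459 on array 3, so that 2.70%, 0.642% and 0.728% of the genes lay below it. By the methods' rule, a relative level under 0.67 on at least 2 arrays, *Trhn* was scored as lower, a rule that 20.5% of the 2517 genes with at least 2 values met. Under 0.67 on all 3 arrays lay 10 of the 466 genes with 3 values (2.15%), and under 0.5 on all 3 arrays 6 of them (1.29%), *Trhn* in each case included. After centring, 75 of the 466 genes (16.1%) lay under 0.67 on all 3 arrays. *Trhn* had been chosen for these values, so nothing further is read from its place among these genes.

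The 3 measurements of *Trhn* differed by more than those of most genes. Its SD of 1.67 was larger than that of 76.8% of the genes with 3 values, for which the median SD was 1.06. On centred arrays the SD of 1.13 was larger than that of 78.1% of these genes, against a median of 0.61. The difference of array 2 from array 1 was -2.81 on the log2 scale, and -2.22 after centring. Arrays 2 and 3 were 0.17 apart as deposited and 0.76 apart after centring. The direction was thus shared by all arrays, whereas the size of the decrease ran from 2.16-fold on array 1 to 17.0-fold on array 3, or from 4.23-fold on array 1 to 19.6-fold on array 2 with centred values.

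The genes whose values were most like those of *Trhn* were found by the Euclidean distance over the 3 arrays among the other 465 genes with 3 values, a measure that centring does not change. The closest was *TTLL6A* (CG16716), with log2 ratios of -1.08, -3.64 and -4.36 and a distance of 0.39. It was followed by *Oseg1* (CG7161) with -0.47, -3.38 and -4.10 at a distance of 0.84, and CG15308 with -1.30, -2.82 and -3.73 at 1.17. Next came CG33220, which RefSeq does not list under this number, at 1.31 and CG32284 at 1.37. Over all 465 genes the median distance was 5.36. *TTLL6A* belongs to the family of tubulin tyrosine ligase-like enzymes, which modify microtubules, and *Oseg1* encodes a component of intraflagellar transport, the traffic along cilia. The likeness rests on 3 values per gene. *Trhn* had been chosen for its low values and held the lowest mean of these genes. Genes close to it are therefore low as well, and most genes lie far from it. These distances are a description only.

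*Ddc* (CG10697), the decarboxylase that follows *Trhn* in serotonin synthesis, had a value on array 3 only. Its log2 ratio there was -4.54, or 4.31% of wild type, and -3.98 (6.33%) after centring. It was the 20th lowest of the 6459 values of array 3, with 0.294% of the genes below it, and lay 0.45 below *Trhn* on the same array. With 1 value there is no spread for *Ddc*, and the rule of at least 2 arrays could not be met. On array 3 by itself, *Trhn* and *Ddc* lay under 0.67 and *e* did not, on an array where 49.0% of all genes lay under 0.67 as deposited and 28.1% after centring.

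The genes that resembled *Ddc* on array 3 were also looked up on the other arrays. With *Trhn* left out, centred values within 0.5 of that of *Ddc* were found for 40 other genes, of which 15 also had a value on array 2. All 15 lay under 0.67 on centred array 2, between -4.40 and -1.40 with a median of -3.76, whereas 29.1% of all genes of that array lay under 0.67. The 4 of the 40 genes with a value on array 1 lay between -2.05 and -0.92. By the methods' account all arrays carry the same RNA pools, in which case this describes repeated measurement and not other animals. *Ddc* itself had no value on arrays 1 and 2, and the reason for empty cells is not known. Genes with a second value may differ from it in this respect, so nothing about *Ddc* on those arrays is read from them.

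**Figure D2:**
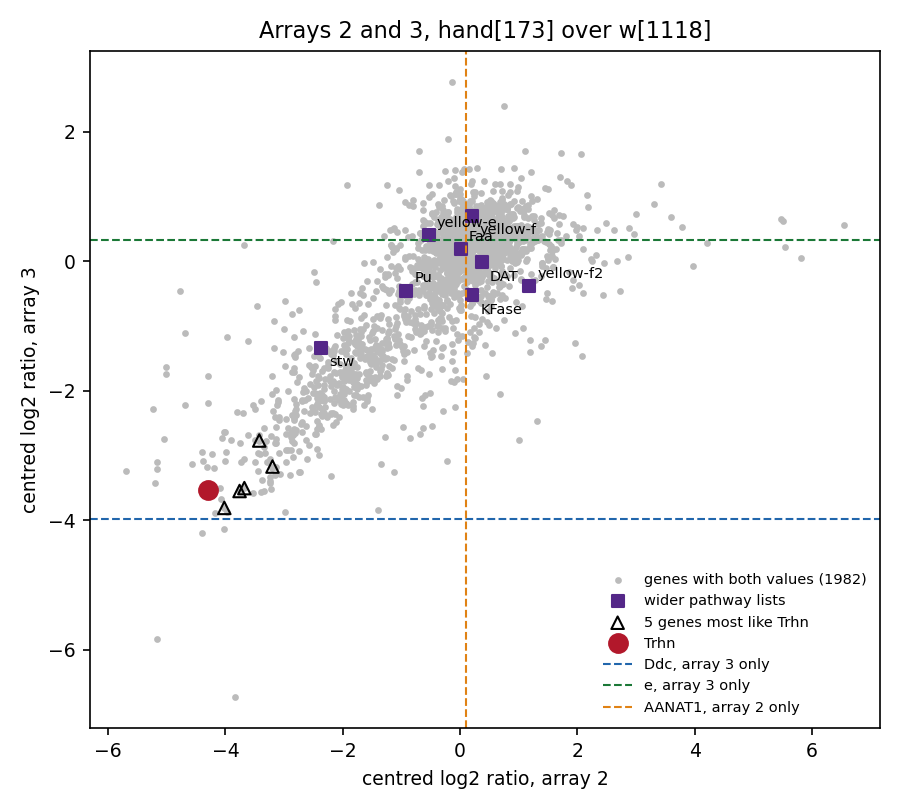
Centred log2 ratios of hand[173] over w[1118] on array 2 (horizontal axis) and array 3 (vertical axis) for the 1982 genes with both values (grey), with *Trhn* (red), the 5 genes most like it (triangles) and wider pathway genes (squares); dashed lines mark enzymes measured on 1 of these arrays. *Trhn* at -4.30 and -3.54 sits at the lower left end of the cloud, at a height close to the line of *Ddc* at -3.98.

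The other measured enzymes, which act on amines once they have been made, had 1 value each, and neither value lay in the lower tail of its array. No split between steps of the pathway is read from this, since *Trhn* was chosen for its low values and *Ddc* had 1 value. *e* (CG3331), the beta-alanyl amine synthase, had a log2 ratio of -0.23 on array 3, or 85.3% of wild type. This value lay above 67.7% of the genes of that array, and centring turned it to 0.33. *AANAT1*, the N-acetyltransferase, had a log2 ratio of 0.47 on array 2, or 139% of wild type, which lay above 54.6% of the genes of that array and became 0.10 after centring. The upper threshold of the methods lies 33% above wild type. As deposited *AANAT1* passed it on array 2, as did 48.3% of all genes there, and after centring it did not, against 31.3% of all genes. In a further count, a gene had only to pass on every array that gave it a value. Then 2 of the 4 measured enzymes (*Trhn* and *Ddc*) were under 0.67, against 32.2% of all genes. Over the upper threshold was 1 (*AANAT1*), against 14.1%. *Trhn* had led to the choice of the set by its low ratios, so its part in this count was fixed in advance. Since *e* and *AANAT1* were each measured once, no spread can be given, and the sign for *e* depended on the centring.

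On array 3, *e* lay 3.86 above *Trhn* and 4.31 above *Ddc* on the log2 scale. On array 2, *AANAT1* lay 4.39 above *Trhn*. *Trhn* had been chosen for its low values, so its distances from *e* and *AANAT1* are a description only. The SD of the difference between 2 centred arrays was 0.87 for arrays 2 and 3 (1982 genes with both values). It was 1.34 for arrays 1 and 3 (937 genes) and 1.6 for arrays 1 and 2 (530 genes). This SD describes 1 gene on 2 arrays and does not measure the distance between 2 genes on 1 array. Among the 1033 genes that had a centred value on array 3 within 0.5 of that of *e* and a value on array 2, 64 (6.20%) lay under 0.67 on centred array 2, against 29.1% of all genes there, and 401 (38.8%) lay over the upper threshold, against 31.3%. For *AANAT1*, the values on centred array 3 of 877 genes with a like value on array 2 fell under 0.67 for 83 genes (9.46%, against 28.1% of all genes) and over the upper threshold for 307 genes (35.0%, against 27.3%). On centred array 1, the shares under 0.67 were 15.2% of 428 genes for *e* and 11.7% of 180 genes for *AANAT1*, against 21.9% of all genes. A smaller share than over all genes follows for values near the median when arrays correlate, as arrays 2 and 3 did (r = 0.77). By the methods' account the arrays also carry the same RNA pools. Nothing about *e* or *AANAT1* on a second array is therefore read from these shares.

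The remaining 6 enzymes, *Hn*, *ple*, *Tdc1*, *Tdc2*, *Tbh* and *t*, had no row in the value table and are unmeasured here. The octopamine branch, with *Tdc1*, *Tdc2* and *Tbh*, is therefore without any value, and of the aromatic amino acid hydroxylases (*Trhn*, *Hn* and *ple*) only *Trhn* was measured. Of the 13962 protein-coding genes in the RefSeq annotation, 48.1% had a row, so that 4 of 10 enzymes with a row is close to the share over all genes. The former number CG3686, which RefSeq gives to both *Tdc1* and *Tdc2*, had no row either.

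Beyond the synthesis enzymes, 43 genes that supply cofactors and precursors, carry amines or use them were looked up, of which 25 had a value. The median over these 25 genes of the mean centred log2 ratio was 0.13, against 0.01 over all 7498 genes, and the values ran from -2.47 to 2.04. Of the 9 genes with at least 2 values, 2 were scored as lower and 1 as higher as deposited, against 20.5% and 9.69% of all genes with at least 2 values. After centring, 1 of the 9 was lower and 0 were higher, against 21.9% and 11.8% of all genes. The median of the wider set thus lay near that of all genes, and its counts rest on 9 genes.

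Among the genes that provide tetrahydrobiopterin, the cofactor of the amino acid hydroxylases, 2 of 6 had a value. *Pu*, which encodes the GTP cyclohydrolase at the start of this route, had log2 ratios of -0.55 and -1.01 on arrays 2 and 3, which average -0.78 ± 0.33 (SD, n = 2 arrays). Only array 3 passed the 0.67 threshold, so *Pu* was not scored. Its centred values were -0.92 and -0.45.

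For packaging and reuptake, 4 of 5 genes had a value. The dopamine transporter gene *DAT* had log2 ratios of 0.99, 0.75 and -0.57 on arrays 1, 2 and 3, a mean of 0.39 ± 0.84 (SD, n = 3 arrays). It was scored as higher as deposited, and not after centring, where its values were 0.02, 0.37 and -0.01. Among genes with 1 value, *SerT*, the serotonin transporter, and *Vmat*, the vesicular monoamine transporter, are named because of their values. Serotonergic neurons use both together with *Trhn*, and whether the share of such cells differed between the lines was not tested. On array 3, *SerT* had a log2 ratio of 0.13 and *Vmat* one of 0.26, which became 0.69 and 0.82 after centring. *Balat*, a beta-alanine transporter and the remaining gene of the list with a value, lay lower on array 3, with -1.70 as deposited and -1.14 after centring. The *Trhn* value on that array was below those of all 4 genes.

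The genes listed for the use of dopa and dopamine in the cuticle had a value in 7 of 10 cases, with 4 genes measured at least on 2 arrays. *stw*, the laccase that oxidizes catechols during cuticle hardening and is listed under its former number CG30437, had log2 ratios of -1.99 and -1.89 on arrays 2 and 3, which average -1.94 ± 0.07 (SD, n = 2 arrays). It was scored as lower as deposited and after centring, where the values were -2.37 and -1.33. The *yellow* family members did not share this. *yellow-e* had a mean of 0.30 ± 0.79 (SD, n = 3 arrays), *yellow-f* one of 0.36 ± 0.30 and *yellow-f2* one of 0.31 ± 1.77 (SD, n = 2 arrays each), and none of them was scored. The other measured genes of the list, *PPO1*, *PPO2* and *PPO3*, had 1 value each, on array 3, and could not be scored. Their log2 ratios were 1.38, 0.48 and -3.03, or 1.94, 1.04 and -2.47 after centring.

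The list of related amino acid decarboxylases and beta-alanine supply had a value for 2 of 4 genes, each on 1 array, so neither could be scored. *Hdc* had a log2 ratio of 3.01 on array 1, or 2.04 after centring, the highest mean centred value of the wider set. *b* had 0.08 on array 3, or 0.64 after centring. In the remaining lists, *AANATL3*, related to *AANAT1*, had log2 ratios of -1.02 and -1.06 on arrays 1 and 3, which average -1.04 ± 0.03 (SD, n = 2 arrays). It was scored as lower as deposited but not after centring, where the values were -1.99 and -0.50. *Faa*, the last enzyme of tyrosine breakdown, had a mean of 0.01 ± 0.53 (SD, n = 2 arrays). *KFase*, the kynurenine formamidase on the route that breaks tryptophan down, had a mean of -0.25 ± 1.18 (SD, n = 2 arrays), with 0.58 on array 2 and -1.08 on array 3. These were the genes of their lists with at least 2 values, 1 in each, and neither was scored. The other 5 measured genes of both lists had 1 value each and could not be scored. Among them *GstZ2*, named because of its value, was the lowest with -1.56 as deposited, on array 3, and the highest after centring was *st*, with 0.70 on array 1.

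**Figure D3:**
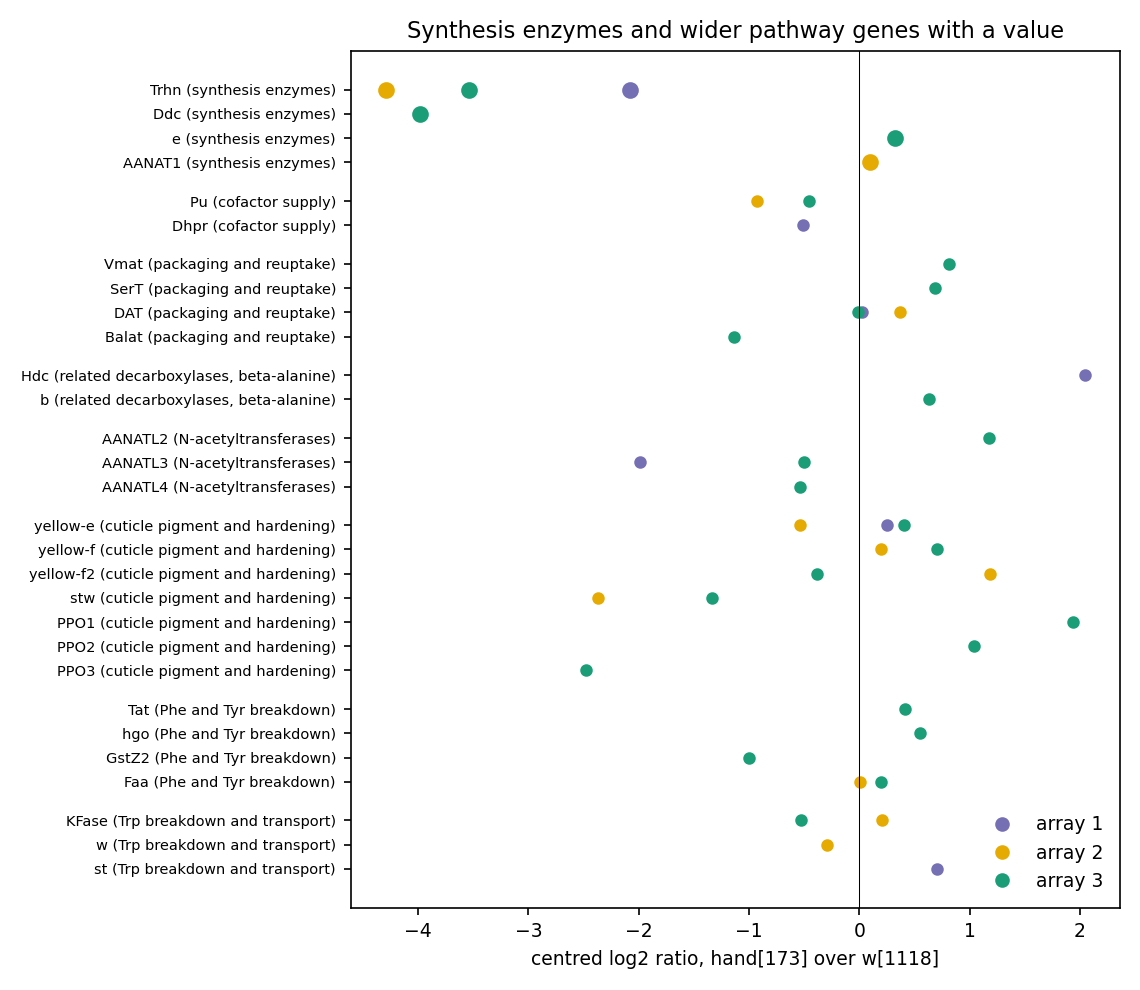
Centred log2 ratios of hand[173] over w[1118] (horizontal axis) of the 4 measured synthesis enzymes and the 25 wider pathway genes with a value (rows, with their list in parentheses), 1 point per array. *Ddc* at -3.98 and *Trhn* on arrays 2 and 3 lie below every point of the wider pathway genes, whereas *Trhn* at -2.08 on array 1 lies above *PPO3* at -2.47 on array 3 and *stw* at -2.37 on array 2.

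Amine enzymes are expressed in neurons and epidermis, so markers of the cell types that the dissected tissue could hold were set beside *Trhn* and *Ddc*. For neurons, 5 of 9 marker genes had a value, under 7 numbers. Centred values on array 3 ran from -1.10 to 2.11 with a median of -0.16 (6 numbers). Of these 6 numbers, 3 lay under 0.67, against 28.1% of all genes. They belong to 3 genes, *nSyb* at -1.10, *futsch* at -0.92 and *VAChT* at -0.70. Over the upper threshold lay 2, both former numbers of *brp*, at 0.58 and 2.11, against 27.3% of all genes. The upper side is thus made up by 1 gene, which enters the median under both numbers. *Syt1*, at 0.38, lay between the thresholds. The 1 of the 7 numbers with at least 2 values was not scored. For epidermis and cuticle, 3 of 8 genes had a value, from -1.69 to 1.69 on centred array 3. Of these 3 genes, 2 lay under 0.67 there and 1 over the upper threshold. Among them the cuticle protein gene *Lcp1* had log2 ratios of 0.71, -1.98 and -2.25 and was scored as lower. Its centred values were -0.26, -2.35 and -1.69, so it lay slightly below the median of array 1 and far below those of the other arrays. The neuronal marker *elav* had no row, ratios give no absolute level, and the part of other cell types in the low values of *Trhn* and *Ddc* was not tested.

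For fat body, the tissue named in the labelling protocol, 6 of 8 genes had a value. *Lsp1alpha*, which encodes a larval storage protein, had 1.36, -3.30 and -3.61, whereas the remaining genes of the list had mean centred values of up to 1.04 and *Fbp1* was scored as higher as deposited. For hemocytes 4 of 6 genes had a value, with mean centred values from -1.71 to 1.78. The lowest was *Pxn*, the peroxidasin of the extracellular matrix, which was scored as lower with 0.30, -1.69 and -2.96, and the highest was *srp* with 2.15 on array 2. The heart and pericardial list had values for 6 of 10 genes, with mean centred values from -0.73 to 2.07, and the muscle list for 6 of 10, from -1.61 to 1.78. At least 2 values were present for 1 gene of the heart list and 2 of the muscle list, so that the others could not be scored, and none of these 3 was scored. On centred array 3, 1 of 4 fat body, 2 of 3 hemocyte, 1 of 3 heart and 2 of 5 muscle genes lay under 0.67, against 28.1% of all genes. Over the upper threshold lay 1, 0, 0 and 2 of them, respectively, against 27.3% of all genes. In the muscle list *Tm1*, a tropomyosin measured on all 3 arrays, had 1.27, -0.45 and -1.02, the myosin gene *Mhc* had 2.15 on array 2, and the troponin gene *up* had -2.16 on array 3. The defining heart marker *tin* had no row. *Lsp1alpha*, *Pxn* and *Lcp1* were low on arrays 2 and 3 like *Trhn*. As deposited none of them was under 0.67 on array 1, where *Trhn* was, and after centring *Pxn* was, with -0.67 on the log2 scale.

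The measured enzymes lie on different chromosome arms by the RefSeq annotation, *Trhn* on 3L, *Ddc* on 2L, *e* on 3R and *AANAT1* on 2R. *Ddc* shares its arm with *hand*. The build of the array's gene models is not given in the sources used here, so only the order of genes was used and coordinates are left out. The nearest measured gene before *Trhn* was *bab2*, with log2 ratios of -0.70 on array 2 and -1.51 on array 3, which was scored as lower. The nearest one after it, *Aplip1*, had 0.18 on array 3. Over the 6 measured genes within 8 places on either side of *Trhn*, centred values on array 3 ran from -0.95 to 0.83, against -3.54 for *Trhn*. *Trhn* had been chosen for its low values, and 0.728% of the genes of array 3 lay below it. Neighbours above it follow from that choice, so nothing about the region is read from them.

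For *Ddc*, the 7 measured neighbours had centred values on array 3 from -1.28 to 0.86, against -3.98 for *Ddc*. The adjacent CG10561 had a log2 ratio of 0.30 on array 3. *l(2)37Cd*, on the other side, had 1.18, -1.61 and -1.84 and was scored as lower. The order was the reverse for *e*, whose neighbour *Nelf-A*, a subunit of the negative elongation factor of transcription, was scored as lower with -2.83 on array 2 and -3.74 on array 3. Its other neighbour, CG5892, had 1.12, 0.55 and 0.06. Near *AANAT1* only 2 genes within 8 places had a value, CG3257 with -0.12 and *Nop60B* with -1.69 on array 3. A further number, CG12240, is given by RefSeq to 2 adjacent genes and was not used.

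**Figure D4:**
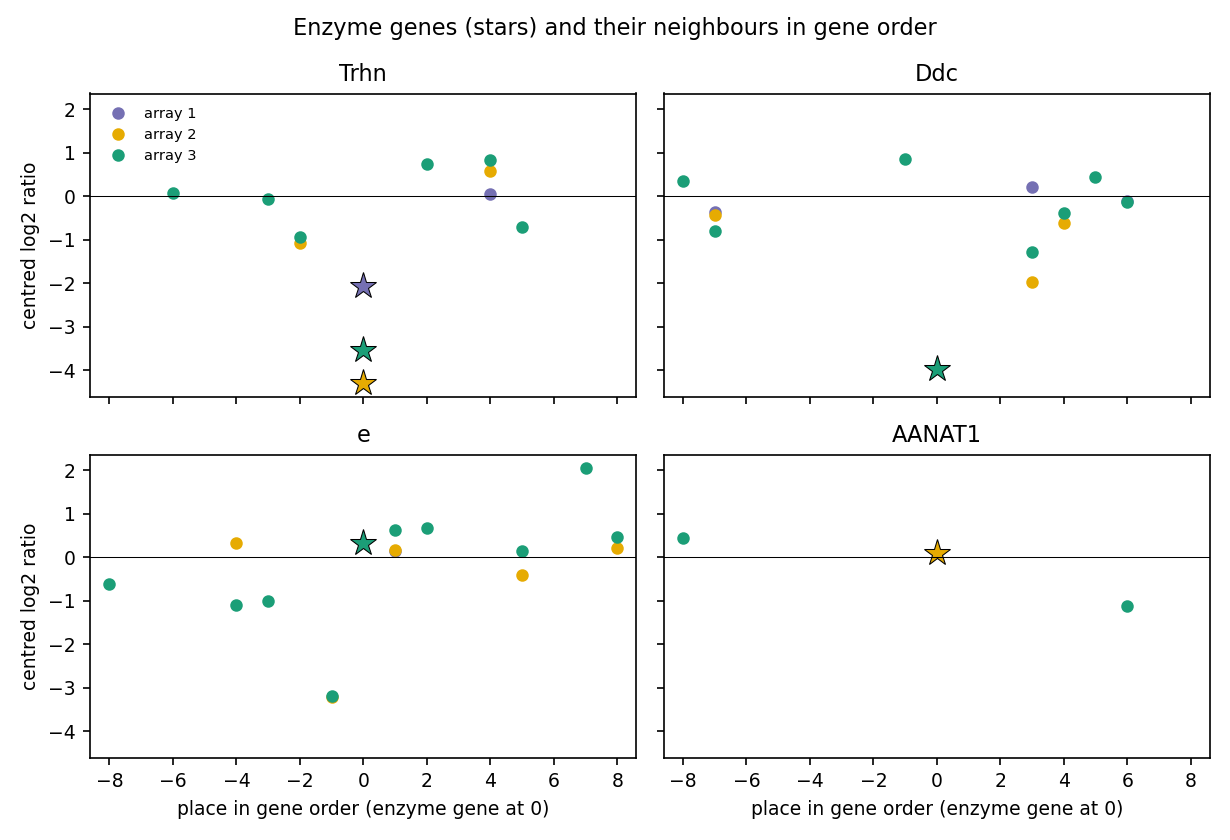
Centred log2 ratios of hand[173] over w[1118] (vertical axis) of each measured enzyme gene (stars) and of measured genes within 8 places before or after it in RefSeq gene order (circles), coloured by array. *Trhn*, chosen for its low values, and *Ddc* stand below all their measured neighbours. In contrast, *e* stands above its neighbour *Nelf-A* at about -3.19 on array 3.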

How the data were processed

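The authors amplified cDNA with LA Taq polymerase, transcribed it with T7 polymerase for labelling, hybridized spotted arrays, and acquired and normalized the scans with GenePix and Acuity. The deposited values are log2 ratios, 1 per gene and array; the kind of normalization, the spot filter and the reason for empty cells are not given in the sources used here. Intensities were not used here, so signal over background is unknown, and precision is limited by the small number of arrays. The orientation, Alexa Fluor 647 over 555, follows the dyes. It also matched the direction words of the study's supplementary gene list, since 382 of 383 genes listed as down had a centred mean under 0.

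Values were used as deposited and centred on array medians. The methods' rule (under 0.67, or more than 33% above wild type, on at least 2 arrays) was counted, and no test was run because each genotype is 1 RNA pool by the methods. Between 97.3% and 99.3% of the deposited ratios of an array were numbers with 3 decimals times 1 factor (0.933, 0.931 and 0.458 on arrays 1, 2 and 3; tolerance 0.02 of a thousandth), which fits a log base of 2. Symbols and gene order came from RefSeq (Release 6 plus ISO1 MT), where 7085 of 7498 numbers were found. No sequences were used here.

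The enzymes and gene lists were chosen with earlier results of these data known. Named are all 10 enzymes, wider pathway genes with at least 2 values, markers with 3 values, the 5 genes most like *Trhn* and the nearest measured neighbours. Any other gene (such as *SerT*, *Balat*, *Hdc*, *b*, *GstZ2*, *st*, *PPO1*, *PPO2*, *PPO3*, *nSyb*, *futsch*, *VAChT*, *Syt1*, *brp*, *srp*, *Mhc* and *up*) was chosen after its values were seen, or is a defining marker without a row. Alternatives were centring, scaling, medians, other thresholds, leaving out each array and, added after the data were seen, removal of the array factors. The steps were checked on simulated data. Python 3.11.15, numpy 2.4.6 and pandas 2.3.3 were used.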

Additional observations from a re-analysis of the deposited data

How the results depend on the processing

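*Trhn* was scored as lower under each of the alternatives run, and its mean log2 ratio was -3.30 with centring, -3.24 with centring and scaling, -3.92 as a median and -2.60 with the array factors removed, a setting chosen after the data were seen. Leaving out 1 array gave -4.01 to -2.51, the lowest without array 1. For *Ddc* the value was -3.98 with centring, -4.00 with scaling as well and -3.41 with the factor removed. For *e* these settings gave 0.33, 0.33 and 0.90, all of opposite sign to the deposited -0.23, and for *AANAT1* they gave 0.10, 0.079 and 0.58. A constant per array separates these settings, so the shift of a gene with 1 value is that constant, apart from the scaling. When a gene had only to pass on every array with a value, 2 enzymes were lower, against 32.2% of all genes. These were *Ddc* and *Trhn*, the latter fixed in advance by the choice of the set. In the same setting 1 (*AANAT1*) was higher, against 14.1%. The numbers scored as lower (1) and higher (0) did not change in any other setting, with 1 array left out included. No paired analysis was possible because all arrays belong to 1 group of ratios. Signal near background limits how low a ratio can be measured, and this limit is unknown here.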
